A study of Mus musculus with 6 samples.

Results

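The 40 genes described here encode proteins of the cell division cycle and of DNA replication, and were taken from a fixed list of symbols matched to the deposited expression table of mouse biliary epithelial cells. All 40 symbols were found once each among the 25302 rows, and all 40 passed the minimum mean of 10 normalized reads, as did 17153 rows in all. The list was divided by textbook role into 17 genes that act at the entry into and during DNA synthesis (G1/S) and 23 genes that act from the end of DNA synthesis through cell separation (G2/M). RNA was sequenced from biliary epithelial cells, the lining cells of the bile ducts, of mouse liver in 3 samples named Control, with the genotype Sox9fl/fl, and 3 named Sox9cKO, with the genotype Sox9fl/fl:AlbCre+/-. Both groups thus carry floxed alleles of Sox9, a transcription factor gene of bile duct cells, and the Sox9cKO samples carry in addition Cre recombinase under the albumin promoter, which is active in hepatocytes and in the fetal liver cells that give rise to both hepatocytes and bile ducts. No Cre is named in the Control genotype, so loss of Sox9 and presence of the transgene cannot be told apart. Age and sex of the mice are not given in the sources used here, nor is it stated that the samples came from separate mice, so p-values measure the spread between these samples, which may be technical.

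Cells that leave the resting state switch on cyclin E with its kinase Cdk2 and the E2F transcription factors, load the Mcm2 to Mcm7 helicase on replication origins, and make deoxynucleotides. Later they build up cyclins A and B with Cdk1, the mitotic kinases, and the proteins of spindle, kinetochore and cleavage furrow. Many G1/S transcripts are also present in cells that are not dividing, whereas most G2/M transcripts are made in bulk only by cells close to division. Mature bile duct epithelium divides rarely outside injury, and liver digests can also hold dividing cells of other kinds.

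Values are normalized reads, that is, the reads of a gene over the scaling factor of its library, and are listed in the order of the replicate numbers. Total depth lay between 11883496 and 16191990 reads per library. Sox9, the targeted gene, had 6211, 6043 and 6293 normalized reads in the Control samples and 3363, 3165 and 3340 in the Sox9cKO samples. All 3 Sox9cKO values lay below all 3 Control values, with a log2 fold change of -0.91 (SE 0.095, limma adjusted p 0.00501), so the transcript was reduced but not absent. Without both samples numbered 2 the adjusted p of Sox9 was 0.0522 in limma. The biliary markers Krt19 and Epcam had at least 11480 and 5501 normalized reads in every sample. The libraries also held transcripts of other cell types, and the summed level of 10 endothelial markers, all 10 of them above 0 in every library, ranged from 2434 to 52810 normalized reads in Control and from 8985 to 54601 in Sox9cKO.

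No gene of the list differed between the genotypes at an adjusted p under 0.05 in limma (0 of 40), where 510 of all 17153 tested genes, or 2.97%, did. The median log2 fold change (Sox9cKO minus Control) of the 40 genes was 0.031, with 22 genes above 0 and 18 below, against a median of 0.036 over all tested genes. An unadjusted p under 0.05 was found for 2 of the 40, Ccne2 and Birc5, and for 17.8% of all tested genes. No member was called by edgeR (3 at an unadjusted p under 0.05) or by DESeq2 (1 at an unadjusted p under 0.05) on the recovered reads, tests that called 491 (2.86%) and 1214 (7.08%) of all tested genes. A limma fit blocked on replicate number called 0 of the 40 as well (5 at an unadjusted p under 0.05, lowest adjusted p 0.0708), and called 8.05% of all tested genes. The Sox9cKO values lay wholly on one side of the Control values in 3 of the 40 genes (7.5%), namely Ccne2, Rrm2 and Birc5, compared with 24.2% of all tested genes, and in these 3 they were lower, compared with 10.8% of all tested genes in that direction. A missed threshold does not show that levels were alike, and the 95% intervals reached 0.52 to either side of the estimate in the median G1/S gene and 1.16 in the median G2/M gene on the log2 scale.

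**Figure D1:**
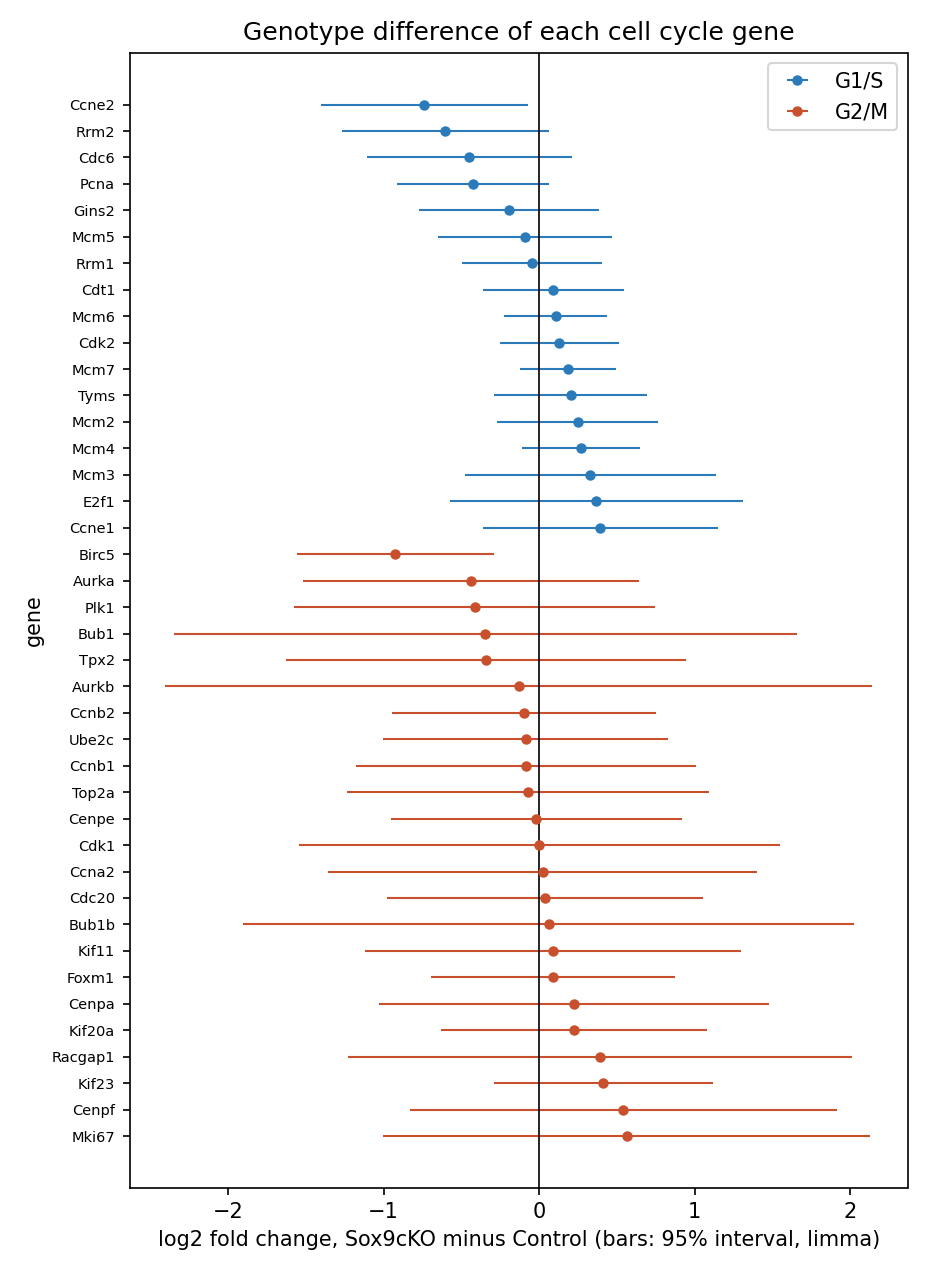
Log2 fold change, Sox9cKO minus Control, of the 40 cell cycle genes (points) with 95% intervals from limma (bars), G1/S genes in blue and G2/M genes in red. The G1/S estimates lie between -0.74 and 0.39, the G2/M estimates between -0.92 and 0.56, and the G2/M intervals are wider.

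Among the G1/S genes, the start of the cycle is represented by the cyclin E genes Ccne1 and Ccne2, their kinase gene Cdk2 and the transcription factor gene E2f1. Ccne2 had 35.3, 30.6 and 36.9 normalized reads in Control and 15.9, 23.6 and 21.5 in Sox9cKO. These groups did not overlap, and the log2 fold change was -0.74 (SE 0.28), at an adjusted p of 0.236 in limma and 0.181 in the blocked fit. Ccne1, the sister gene, had an estimate of 0.39 with overlapping groups (adjusted p 0.589). Cdk2 had between 165 and 218 normalized reads in the 6 samples, and its 95% interval was -0.25 to 0.51. E2f1 ranged from 19.6 in Control replicate 3 to 56.6 in Control replicate 2, so the extremes of both directions were Control samples. Ccne2 and Cdk2 share exon bases with Ints8 and Pmel on the other strand, and since the use of strand in counting is not given, their reads and those of these neighbours cannot be told apart there.

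The licensing factors Cdc6 and Cdt1 place the Mcm helicase on origins, and Gins2 belongs to the complex that activates it. Mcm6 was the most abundant of these genes, with 1157, 864 and 1069 normalized reads in Control and 1118, 1026 and 1160 in Sox9cKO. Its groups overlapped, with a log2 fold change of 0.11 and an interval of -0.22 to 0.44 (limma adjusted p 0.755). Mcm7 had 446, 379 and 441 in Control and 443, 507 and 489 in Sox9cKO, a log2 fold change of 0.19 (adjusted p 0.523). The 6 helicase subunits act as a ring of equal parts. Their estimates lay between -0.09 for Mcm5 and 0.33 for Mcm3, with Mcm2 at 0.25 and Mcm4 at 0.27. Mcm3 had the widest within-genotype spread of the 6 (SD 0.53 on the log2 scale, against 0.12 for Mcm7), with 290, 375 and 175 in Control and 372, 448 and 228 in Sox9cKO. Cdc6, at 141, 173 and 175 in Control and 84.6, 112 and 175 in Sox9cKO, had a log2 fold change of -0.45 (adjusted p 0.465), and Sox9cKO replicate 3 reached the highest Control value. Cdt1 and Gins2 had estimates of 0.09 and -0.19.

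Pcna encodes the sliding clamp of DNA polymerases, Rrm1 and Rrm2 the subunits of ribonucleotide reductase, and Tyms thymidylate synthase. Pcna had 700, 768 and 544 normalized reads in Control and 482, 628 and 398 in Sox9cKO. The groups overlapped in the middle, and the log2 fold change of -0.43 (SE 0.21) had an adjusted p of 0.347 in limma. Blocking on the replicate number gave 0.0708, the lowest adjusted p of the list in that fit. Rrm2, the subunit whose supply limits the enzyme, had 53.8, 66.8 and 36.9 in Control and 33.8, 33.1 and 32.8 in Sox9cKO. Its groups did not overlap, by a margin of few reads, and the log2 fold change was -0.60 (adjusted p 0.327, or 0.217 with the block). Rrm1, the partner subunit, had an estimate of -0.05, and Tyms one of 0.20. Per kilobase of exon, Pcna (244) and Mcm6 (228) had the highest mean levels of the 40 genes, and the median over the G1/S genes was 29.9 against 11.7 over the G2/M genes.

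Among the G2/M genes, Ccna2, Ccnb1 and Ccnb2 encode the cyclins that activate the kinase Cdk1, and Foxm1 a transcription factor of G2/M genes. Cdk1 had 21.9, 69.6 and 11.5 normalized reads in Control and 24.9, 42.5 and 17 in Sox9cKO. Replicate 2 was highest and replicate 3 lowest in each genotype, and the log2 fold change was 0.0010 with an interval of -1.54 to 1.55 (limma adjusted p 0.999). Ccna2 showed the same order in Control, at 28.6, 95.6 and 24.2, and in Sox9cKO, at 45.8, 64.3 and 23.8. The estimates of these 5 genes lay between -0.10 and 0.09. Ccnb1 was the least abundant member per kilobase of exon, at 2.77.

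Plk1, Aurka and Aurkb encode mitotic kinases, Tpx2 an activator of Aurora A on the spindle, and Birc5 (survivin) a partner of Aurora B. Birc5 had the largest difference of the list, with 56.3, 82.6 and 103 normalized reads in Control and 39.8, 41.6 and 40.8 in Sox9cKO. The groups did not overlap, and the log2 fold change was -0.92 (SE 0.27, interval -1.56 to -0.29), at an adjusted p of 0.133 in limma and 0.0713 in the blocked fit. Its adjusted p was between 0.0590 and 0.454 over the alternatives run. Aurkb had 8.41, 42.7 and 2.30 in Control and 7.96, 19.8 and 4.53 in Sox9cKO, of which the lowest value stands for 2 reads. Birc5 thus had its highest Control value in replicate 3, the sample in which Aurkb had its lowest. The 5 genes had estimates between -0.92 and -0.13.

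Bub1 and Bub1b encode spindle checkpoint proteins, Cdc20 the activator of the anaphase-promoting complex and Ube2c the ubiquitin-conjugating enzyme that works with it. Bub1b had 64.7, 119 and 12.7 normalized reads in Control and 56.7, 88.8 and 22.6 in Sox9cKO. The highest value was 9.37 times the lowest, both of them Control samples, and the log2 fold change was 0.06 with an interval of -1.90 to 2.03 (limma adjusted p 0.980). Cdc20 and Ube2c varied less, from 18.4 to 52.0 and from 19.3 to 45.5 normalized reads.

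Cenpa, Cenpe and Cenpf encode kinetochore proteins, Top2a the topoisomerase that untangles sister chromatids, and Mki67 the Ki-67 protein that coats mitotic chromosomes and serves as the usual marker of dividing cells. Mki67 had 428, 1362 and 195 normalized reads in Control and 702, 1105 and 473 in Sox9cKO. The highest and the lowest of the 6 samples were both Control, and the log2 fold change of 0.56 had an interval of -1.0 to 2.13 (limma adjusted p 0.721). Without Control replicate 3 the estimate was -0.09, and without Control replicate 2 it was 1.31, neither of them called. Top2a had 191, 483 and 138 in Control and 227, 336 and 144 in Sox9cKO, with a log2 fold change of -0.07 (adjusted p 0.963). Cenpf had 175, 406 and 68.0 in Control and 231, 324 and 200 in Sox9cKO, with a log2 fold change of 0.54 (adjusted p 0.691).

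Kif11, Kif20a and Kif23 encode spindle and midzone motor proteins, and Racgap1 the partner of Kif23 in the complex that sets the cleavage plane. Kif23 had 662, 616 and 826 normalized reads in Control and 903, 610 and 1441 in Sox9cKO. It was lowest in Sox9cKO replicate 2 and highest in Sox9cKO replicate 3, and its log2 fold change was 0.41 (adjusted p 0.538 in limma and 0.174 in the blocked fit). Racgap1, at 32.8, 125 and 18.4 in Control and 56.7, 88.8 and 35.1 in Sox9cKO, followed the other order, with replicate 2 highest in each genotype. Per kilobase of exon, Kif23 (107) stood above Mki67 (70.6) and all other G2/M genes, and Racgap1 was at 8.41.

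**Figure D2:**
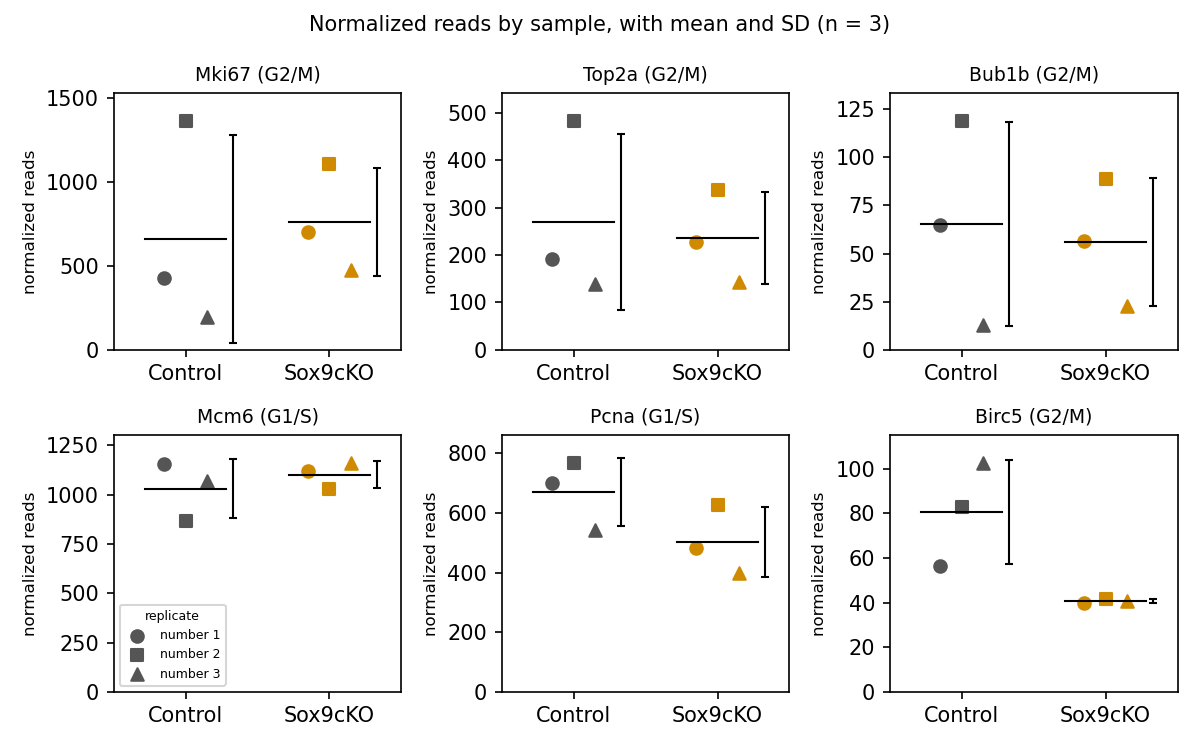
Normalized reads of 6 cell cycle genes in every sample, with marker shapes for the replicate number, a line for the group mean and a bar for the SD (n = 3 per genotype). Replicate 2 is highest in each genotype for Mki67, Top2a, Bub1b and Pcna, while Birc5 is lower in every Sox9cKO sample.

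The contrast between the arms lay in the spread between samples of one genotype. The within-genotype SD of log2 levels had a median of 0.79 over the 23 G2/M genes (range 0.31 to 1.49), 0.29 over the 17 G1/S genes (range 0.12 to 0.56) and 0.29 over all tested genes. Levels were lower in the G2/M arm, at the medians per kilobase of exon given above, and the part of the level in the spread was not tested. The ratio of the highest to the lowest of the 6 samples had a median of 3.60 for G2/M and 1.73 for G1/S genes. The mean log2 level of the G2/M genes was 5.65, 6.80 and 5.09 in Control and 5.83, 6.30 and 5.38 in Sox9cKO. That of the G1/S genes was 7.34, 7.26 and 6.99 in Control and 7.17, 7.28 and 7.11 in Sox9cKO. The G2/M mean minus the G1/S mean was -1.354 ± 0.780 in Control and -1.353 ± 0.368 in Sox9cKO (SD, n = 3), so the groups differed by less than their spread. The median log2 fold change of the G2/M genes, 0.0010 over all 6 samples, was 0.42 without Control replicate 2 and -0.36 without Control replicate 3, while that of the G1/S genes, 0.11 over all samples, was 0.08 and 0.03.

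**Figure D3:**
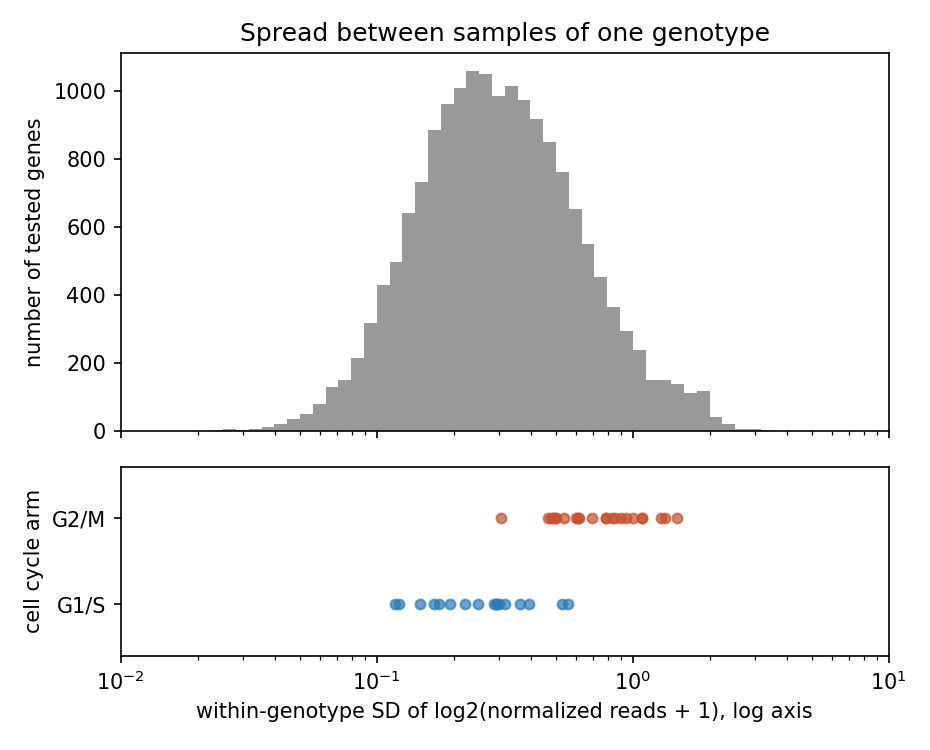
Within-genotype SD of log2(normalized reads + 1), on a log axis, for all 17153 tested genes (upper panel, number of genes per bin) and for each cell cycle gene (lower panel, 1 point per gene). The G2/M genes lie between 0.31 and 1.49 and the G1/S genes between 0.12 and 0.56.

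The G2/M genes shared an order of samples that the genotype did not give. Of the 23 genes, 18 were highest in Control replicate 2, compared with 4 of the 17 G1/S genes and 15% of all tested genes. Both samples numbered 2 held the 2 highest values in 19 of 23 G2/M genes, in 2 of 17 G1/S genes and in 9.24% of all tested genes. The 4 exceptions in the G2/M arm were Birc5, Kif23, Ccnb2 and Cdc20. The lowest value was in Control replicate 3 for 14 of 23 G2/M genes, 7 of 17 G1/S genes and 19.4% of all tested genes. Replicate 2 lay above replicate 3 in both genotypes for 87% of G2/M, 58.8% of G1/S and 29.5% of all tested genes. The F test of the replicate number in the blocked limma fit was chosen after these values were seen. It passed an adjusted p of 0.05 for 4 of the 40 members (10%) and for 2.72% of all tested genes. The 4 were Mcm3 (0.0415), Bub1b (0.0396), Cenpa (0.0415) and Top2a (0.0431). An unadjusted p under 0.05 was found for 15 of the 23 G2/M genes, 2 of the 17 G1/S genes and 18.9% of all tested genes. What the number in the sample names stands for is not given in the sources used here.

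**Figure D4:**
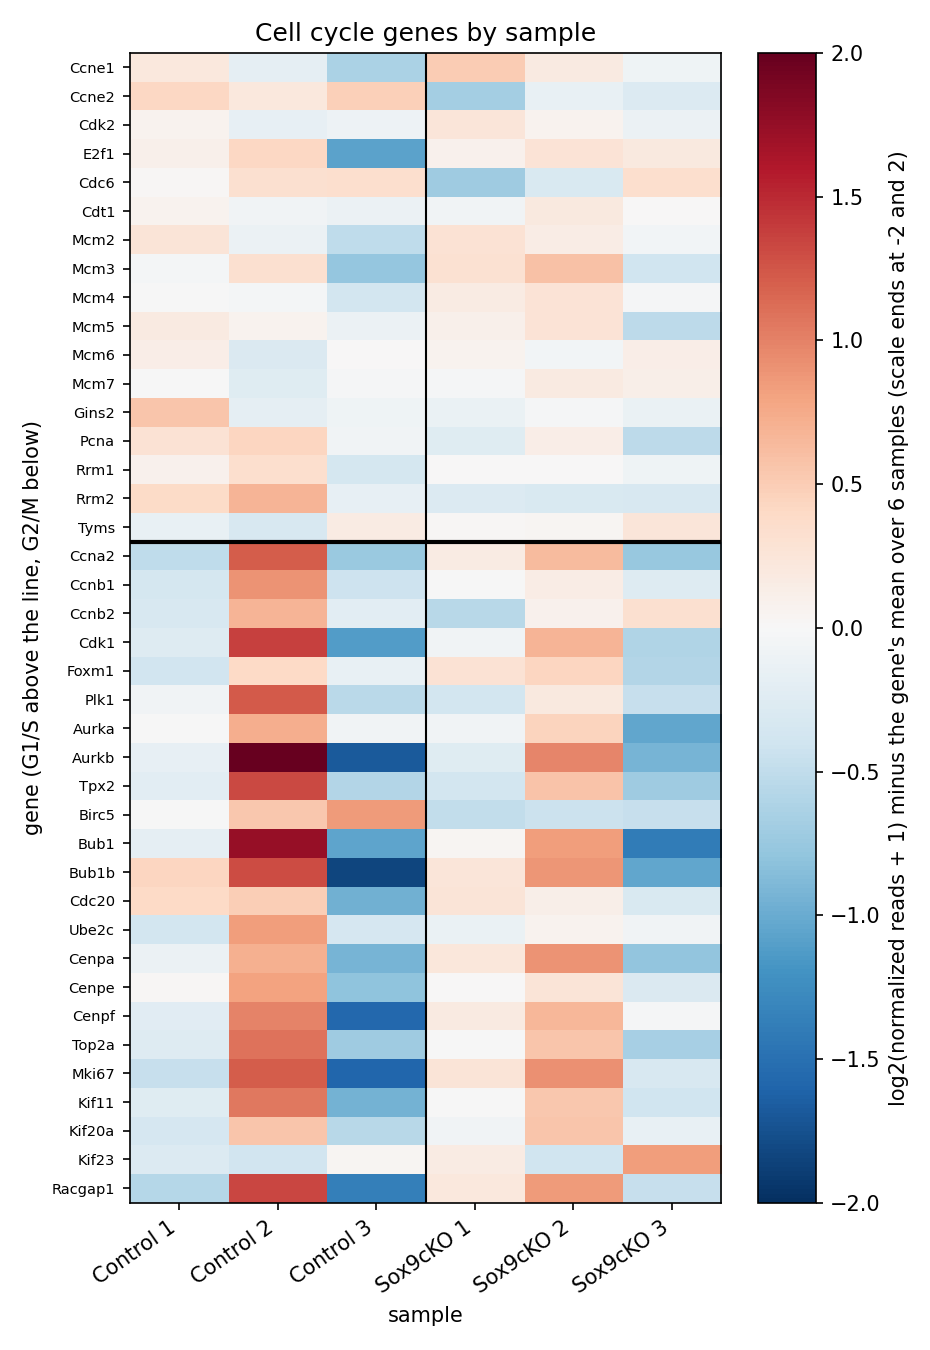
Log2(normalized reads + 1) of each cell cycle gene in each sample, relative to the gene's mean over the 6 samples (red above, blue below, scale from -2 to 2), with G1/S genes above the black line and G2/M genes below it. The columns of Control replicate 2 and Sox9cKO replicate 2 are red and that of Control replicate 3 is blue for most G2/M genes, while Birc5 and Kif23 depart from this.

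Promoter sequences are shown for genes of both arms because the G2/M genes varied together across samples and the G1/S genes less so. As background, many G2/M promoters carry a short element called CHR, through which the DREAM repressor and the B-Myb and FoxM1 activator complexes act, often beside CCAAT boxes bound by NF-Y, and many G1/S promoters carry E2F sites. Windows of 250 bases before to 50 after the RefSeq start (build GRCm38.p6) were matched by symbol to 14 of the G1/S genes (15 windows) and 18 of the G2/M genes (18 windows). The CHR letters TTTGAA or TTCGAA, on either strand, occurred in 15 of the 18 G2/M windows (83.3%), 2 of the 15 G1/S windows (13.3%) and 19.2% of all 32851 windows of the same length. The E2F letters TTTCCCGC, TTTGGCGC, TTTCGCGC or TTTGCCGC, on either strand, occurred in 1 of the 18 G2/M windows (5.56%), 7 of the 15 G1/S windows (46.7%) and 2.26% of all windows. At least 2 CCAAT boxes, on either strand, stood in 61.1% of the G2/M, 33.3% of the G1/S and 11.7% of all windows. These are matches of letters, which may overlap each other, and no binding was measured. The 200 bases before the start follow, 5′ to 3′ on the gene's strand, with CHR and E2F matches in capitals, first for 3 G2/M genes that were highest in the samples numbered 2, then for Birc5, which was not, and last for 2 helicase genes of the G1/S arm.
Cdk1, chr10:69352913-69353112, minus strand: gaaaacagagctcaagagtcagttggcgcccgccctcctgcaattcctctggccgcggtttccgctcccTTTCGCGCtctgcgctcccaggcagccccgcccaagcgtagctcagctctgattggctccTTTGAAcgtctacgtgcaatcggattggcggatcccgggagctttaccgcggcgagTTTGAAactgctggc
Mki67, chr7:135716380-135716579, minus strand: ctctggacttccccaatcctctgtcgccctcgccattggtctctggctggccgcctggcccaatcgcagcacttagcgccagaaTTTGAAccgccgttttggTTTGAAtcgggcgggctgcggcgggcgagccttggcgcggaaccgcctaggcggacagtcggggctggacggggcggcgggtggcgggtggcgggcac
Top2a, chr11:99024190-99024389, minus strand: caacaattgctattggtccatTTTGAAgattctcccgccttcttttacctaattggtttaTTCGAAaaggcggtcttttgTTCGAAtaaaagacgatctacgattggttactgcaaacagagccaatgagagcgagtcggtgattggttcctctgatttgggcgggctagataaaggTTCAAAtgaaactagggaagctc
Birc5, chr11:117849037-117849236, plus strand: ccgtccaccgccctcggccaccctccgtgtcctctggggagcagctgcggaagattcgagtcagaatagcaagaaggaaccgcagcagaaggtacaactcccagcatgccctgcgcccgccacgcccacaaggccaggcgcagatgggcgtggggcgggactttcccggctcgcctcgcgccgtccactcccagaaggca
Mcm6, chr1:128359706-128359905, minus strand: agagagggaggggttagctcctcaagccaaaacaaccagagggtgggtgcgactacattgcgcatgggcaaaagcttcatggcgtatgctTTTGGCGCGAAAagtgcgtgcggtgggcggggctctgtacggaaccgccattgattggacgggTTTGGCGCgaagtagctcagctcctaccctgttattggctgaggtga
Mcm5, chr8:75109309-75109508, plus strand: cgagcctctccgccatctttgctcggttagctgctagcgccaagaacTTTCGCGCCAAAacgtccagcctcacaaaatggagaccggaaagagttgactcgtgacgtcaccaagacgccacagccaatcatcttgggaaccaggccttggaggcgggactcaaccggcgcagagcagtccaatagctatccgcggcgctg

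The Cdk1 stretch holds 2 CHR and 1 E2F match, that of Mki67 2 CHR matches and that of Top2a 4. The Mcm6 stretch holds 3 E2F matches, of which a pair overlap, and that of Mcm5 holds 2 that overlap. In the Birc5 stretch these letters do not occur. Kif23, Ccnb2 and Cdc20, which like Birc5 lacked the order with both samples numbered 2 on top, each had a CHR match in their windows. Ccnb1 and Cenpe, which had that order, had none. Of the 23 G2/M genes, 18 had a window. A CHR match stood in 15 of those 18 windows, so few without one were left for comparison. Whether the letters and the sample order go together was not tested.

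Endothelial transcripts moved with the G2/M genes across the samples. The summed level of the 10 endothelial markers was 16432, 52810 and 2434 normalized reads in Control and 41467, 54601 and 8985 in Sox9cKO. Ordered by this sum from lowest to highest, the samples were Control 3, Sox9cKO 3, Control 1, Sox9cKO 1, Control 2 and Sox9cKO 2, and the order by the mean G2/M level was the same except that the last pair changed places. Stab2, a receptor gene of liver sinusoidal endothelium, had 3982, 12848 and 424 normalized reads in Control and 9565, 14073 and 2140 in Sox9cKO. Both samples numbered 2 held the 2 highest values in 8 of the 10 endothelial markers. Vwf, at 189, 139 and 101 in Control and 268, 235 and 190 in Sox9cKO, and Clec4g, highest in Sox9cKO replicate 1, departed from this. With the mean log2 level of the endothelial markers as a covariate, a fit chosen after these values were seen, the residual SD had a median of 0.42 over the G2/M genes, 0.16 over the G1/S genes and 0.26 over all tested genes, compared with 0.79, 0.29 and 0.29 without it. In that fit 0 of the 40 members were called for genotype (5 at an unadjusted p under 0.05), and the median log2 fold change was -0.33 over the G2/M genes and 0.07 over the G1/S genes. The covariate was not balanced between the genotypes, as all 10 endothelial markers had positive estimates for genotype (median 1.07, 0 called in limma). These medians therefore also depend on that imbalance. The blocked fit left residual SDs with medians of 0.40, 0.15 and 0.21 for G2/M, G1/S and all tested genes. The replicate number and the endothelial level went together and cannot be told apart here, and the part that endothelial RNA has in the G2/M levels was not tested. In RNA from many cells, fewer cells of a type and less RNA per cell cannot be told apart.

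**Figure D5:**
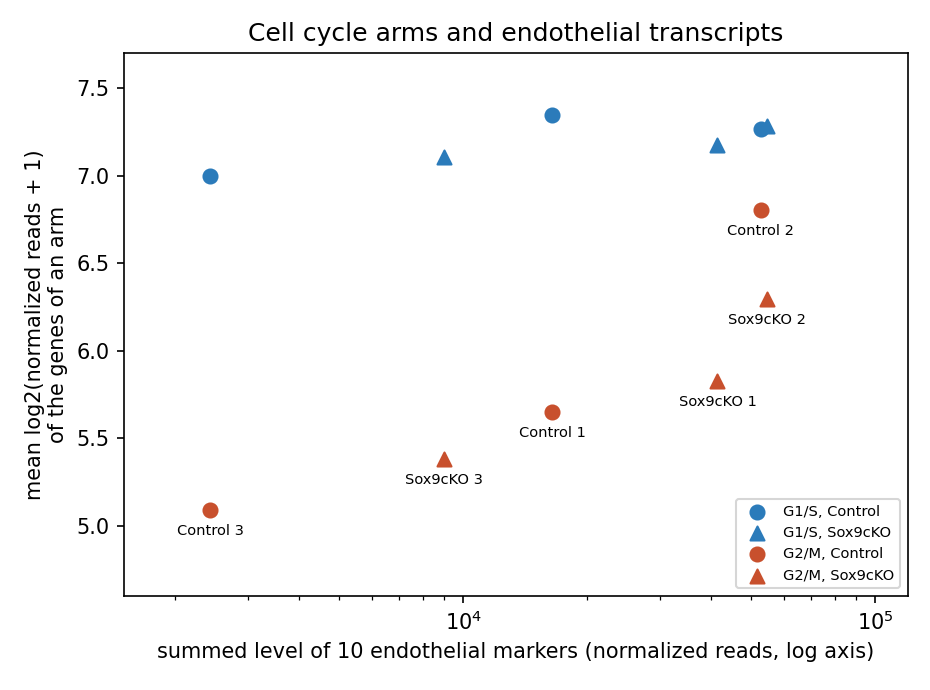
Mean log2(normalized reads + 1) of the G1/S genes (blue) and the G2/M genes (red) in each sample against the summed level of 10 endothelial markers (log axis), with circles for Control and triangles for Sox9cKO. The G2/M mean runs from 5.09 in Control replicate 3 to 6.80 in Control replicate 2, and the G1/S mean stays between 6.99 and 7.34.

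Marker sums of the other cell types did not follow that order. The 12 biliary markers summed to between 111008 and 154920 normalized reads in Control and between 103056 and 137116 in Sox9cKO. The 10 hepatocyte markers summed to between 19050 and 30362 in Control and between 24804 and 38682 in Sox9cKO, and the 10 mesenchymal markers to between 3401 and 4020 in Control and between 4066 and 5384 in Sox9cKO. The 10 leukocyte and erythroid markers analysed here summed to between 1090 and 1289 in Control and between 1546 and 1853 in Sox9cKO, mostly from Csf1r, a macrophage receptor gene, with Ptprc at 37.0 normalized reads or fewer in each sample. Csf1r rose by 0.92 on the log2 scale (limma adjusted p 0.0142). It shares exon bases with Hmgxb3 on the other strand, and their reads cannot be told apart there. The other 8 of the 9 markers tested had negative estimates, none called, and the median of the 9 was -0.68. Without Csf1r the remaining 9 markers summed to 397, 584 and 293 in Control and 281, 275 and 215 in Sox9cKO, lower in every Sox9cKO sample than in any Control sample. Between samples of the same number, the biliary sum was lower in Sox9cKO in 3 of 3 pairs. The hepatocyte, endothelial and mesenchymal sums were higher in 3 of 3 pairs. Single biliary, hepatocyte and mesenchymal markers did not all go the way of their sums. Of the 12 biliary markers, 5 had positive and 7 negative estimates, with Krt7 called higher and Sox9 called lower in limma. Krt7 shares exon bases with Gm671 on the other strand. Spp1 had a mean of 55128 in Control and 34136 in Sox9cKO. The mean biliary sum was 135421 in Control and 117243 in Sox9cKO, a smaller drop than that of Spp1 alone. Without Spp1 the mean biliary sum was thus not lower in Sox9cKO. Estimates were positive for 8 of 10 hepatocyte, 5 of 10 mesenchymal and 10 of 10 endothelial markers. None of the markers summed here was at 0 in any sample, but Ptprc and Hba-a1 each had 1 read in Sox9cKO replicate 3. Cd3e and Nkg7, also on the leukocyte list, were not found by symbol among the rows and are not in the sums. Single markers were highest in Control replicate 2, as most G2/M genes were, for 6 of the 9 leukocyte and erythroid markers tested, among them Itgam at 146 there and 15.9 to 39.7 in the other samples, for 4 of the 10 mesenchymal markers, and for 0 of the biliary and 0 of the hepatocyte markers. Their part in the cell cycle values was not tested.

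Further genes of the same pathway were taken from lists chosen by role. Of 40 other G1/S genes, all tested, 1 was called, and of 52 other G2/M genes, of which 49 were tested, none was called in limma, with 1 at an unadjusted p under 0.05 (2.97% of all tested genes were called). Their median log2 fold changes were -0.11 and -0.07. Pola1, the catalytic subunit of the polymerase that primes DNA synthesis, had 578, 510 and 469 normalized reads in Control and 321, 346 and 298 in Sox9cKO. It fell by 0.69 on the log2 scale (SE 0.14), at an adjusted p of 0.0499 in limma and 0.0234 in the blocked fit, where 0.939% of all tested genes were called lower without the block. The call was lost when any 1 of the 6 samples was left out (adjusted p 0.101 to 0.200) and without both samples numbered 2 (0.194). With all 6 samples it was lost with a pseudocount of 0.1 (0.0515), with no filter on low values (0.0597), with TMM factors (0.0501) and without the intensity trend (0.0903). Ube2s, an enzyme of the anaphase-promoting complex, had the lowest p of the G2/M list, with 340, 326 and 376 in Control and 281, 242 and 231 in Sox9cKO (adjusted p 0.150). Sgo1, a protector of sister chromatid cohesion, was second at a log2 fold change of -1.30 (adjusted p 0.330). It had 26.9, 13.0 and 17.3 in Control and 10.9, 11.3 and 2.26 in Sox9cKO, of which the lowest value stands for 2 reads. In 31 of the 49 genes (63.3%) of this G2/M list, and in 9 of the 40 (22.5%) of the G1/S list, the samples numbered 2 held both of the highest values, compared with 9.24% of all tested genes. The within-genotype SD had a median of 0.71 over the former and 0.32 over the latter.

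Of 23 genes that control the passage through G1, 1 was called. Cdk6, a kinase that works with D-type cyclins, had 1152, 1027 and 1414 normalized reads in Control and 1862, 2457 and 2737 in Sox9cKO. It rose by 0.97 on the log2 scale (SE 0.18), at an adjusted p of 0.0406 in limma and 0.00847 in the blocked fit, where 2.03% of all tested genes were called higher without the block. Leaving out any sample but Sox9cKO replicate 1 ended the call (adjusted p 0.0648 to 0.163), as did edgeR (0.0528), quantile normalization (0.0589), a fit without the intensity trend (0.0889) and one without both samples numbered 2 (0.209). Cdk6 and Ube2s each share exon bases with another annotated gene on the other strand. The related kinase gene Cdk4 had a log2 fold change of 0.45 (adjusted p 0.220), and the cyclin gene Ccnd1 one of 0.07. The inhibitor genes Cdkn1a (p21) and Cdkn1b (p27) had log2 fold changes of 0.15 and -0.42, with adjusted p-values of 0.624 and 0.148 in limma, and Cdkn1b had 576, 543 and 468 normalized reads in Control and 386, 400 and 392 in Sox9cKO. The groups did not overlap in 6 of these 23 genes (26.1%), Cdkn1b, Cdk4 and Cdk6 among them, a share near the 24.2% of all tested genes.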

How the data were processed

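Per the submitters' processing notes, the genome build was GRCm39 and DESeq2 1.36.0 was used, and the aligner, counting program, annotation and use of molecular identifiers are not given in the sources used here. Values are a signal deposited by the authors, namely gene counts over one size factor per library, and dividing each library by the smallest value above 0 gave whole reads for 100% of values (tolerance 0.001). Values were transformed as log2(value + 1), which understates changes of low genes, and limma 3.58.1 (R 4.3.3) was fitted to genes with a mean of at least 10 (intensity trend, Benjamini-Hochberg over all tested genes, two-sided, threshold 0.05). Called means an adjusted p under 0.05. Alternatives included edgeR 4.0.16 and DESeq2 1.42.0 on the recovered reads. Deviations of same-numbered samples from their group means had correlations across genes of 0.207, 0.472 and 0.542 for numbers 1 to 3, and the pairing comes from the sample titles. Exon lengths and overlaps came from GENCODE M21 (GRCm38), in which 24811 rows matched, and 11 of the 40 members shared exon bases with another gene. Members and lists were chosen with earlier results of these data known. Given in full were the 3 members per arm with the largest differences and the 3 most abundant, called genes of the pathway lists, or else the 2 with the lowest p. Other genes given in full were chosen after their values were seen. Fits were also run on simulated counts, drawn independently for each sample without a shared effect of replicate number or endothelial RNA. That run cannot show how the fits behave where samples share such an effect.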

Additional observations from a re-analysis of the deposited data

How the results depend on the processing

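The count of called members was 0 in all 13 fits with the 6 samples, in the 6 that each left out 1 sample and in 2 chosen after seeing the data (without both samples numbered 2, and with the endothelial covariate). Signs of single members changed in 0 to 10 of the 40 per alternative, with none called, and a minimum mean of 50 left 27 members to test, while 37 were tested without Control replicate 2 or without both samples numbered 2. The median log2 fold change of the members lay between -0.256 (without Control replicate 3) and 0.294 (without Control replicate 2) and the difference of the G2/M and G1/S medians (-0.10) between -0.393 (endothelial covariate) and 0.334 (without Control replicate 2). Over all genes, 510 were called, against 1043 with sample weights, 1381 with the replicate block, 1160 with edgeR and the replicate block, 1214 with DESeq2, 236 without both samples numbered 2 and 200 to 389 when 1 sample was left out. Fits with fewer samples have less information, and the cause of the other changes was not tested. Sox9 was lower under every alternative, and missed the threshold without both samples numbered 2 (-0.90, adjusted p 0.0522). The block changed no call of a member, of Pola1 or of Cdk6. Aurkb and Bub1 had 3 or fewer reads in a sample, so their spread includes counting error.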
